A study of Mus musculus with 71 samples.

Results

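Wnt9a, Wnt7b, Fzd9, Frat1, Frat2, Dact1, Dact2, Axin2, Lef1 and Tcf7l2 are genes of Wnt signaling whose ribosome-associated mRNA was measured in the mouse hippocampus. They are 10 of the 57010 genes in the count table and 10 of the 30141 genes with enough counts to be tested. Frat1, Dact2 and Wnt9a were chosen by their values, because they were among the genes with the largest falls 1 h after training, and the other 7 were chosen as their relatives in the pathway. The comparisons that use the mice at zt3 or 1 h after training therefore describe Frat1, Dact2 and Wnt9a without a test, while the other 7 genes were tested in all comparisons. Earlier results of these data were known when the 10 were chosen, so the tests are not wholly independent of the choice. All 10 passed the filter on low counts, which asked only for a total of at least 10 counts over all mice.

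The samples were hippocampi of wild-type C57BL/6J male mice, from which mRNA bound to ribosomes carrying phosphorylated S6 (pS6-TRAP) was purified and sequenced. Phosphorylated S6 marks recently active cells, so the measurement weights such cells and is not a sort of 1 cell type. From weaning, mice had free access to normal chow (NC ad lib), free access to a high-fat and sugar diet (HFS ad lib), or that diet with food offered only from late in the light phase to early in the next one during the last weeks (HFS TRF, time-restricted feeding). The first experiment held 36 mice, 6 per diet in the home cage at zt3 (HC zt3) and 6 per diet 1 h after training in object recognition memory (ORM+1 h). The second held 35 mice, 6 per diet in the home cage at zt15 (HC zt15) and 6 per diet 12 h after training (ORM+12 h), except that HFS TRF HC zt15 held 5. Training took mice out of the home cage to explore 2 identical objects in an open field, so training, novelty and handling come together in these groups.

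Wnt proteins are secreted lipid-modified ligands that bind Frizzled receptors and LRP co-receptors. In the canonical branch, binding disables a cytoplasmic complex of Axin, APC and GSK3 that otherwise marks beta-catenin for destruction, and beta-catenin then drives transcription together with TCF and LEF factors. In the adult hippocampus the pathway is known for its part in dendrite growth, synapse maintenance and the birth of granule neurons in the dentate gyrus.

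Wnt9a and Wnt7b encode ligands, and Fzd9 encodes a Frizzled receptor that is abundant in the developing hippocampus. Frat1 and Frat2 encode paired GSK3-binding proteins that keep GSK3 from Axin, and Dact1 and Dact2 encode Dapper proteins that bind Dishevelled, the adaptor below Frizzled. Axin2 is both a scaffold of the destruction complex and a common target gene of the pathway, while Lef1 and Tcf7l2 encode its transcription factors. On GRCm39, Frat1 (chr19:41818409-41821022, plus strand) and Frat2 (chr19:41834411-41836571, minus strand) are neighbours of 1 exon each, as Fzd9 is a gene of 1 exon (chr5:135277792-135280084, minus strand). Wnt9a lies at chr11:59197567-59224378 on the plus strand, Dact2 at chr17:14415314-14424566 on the minus strand, Dact1 at chr12:71356543-71366881 on the plus strand, and Wnt7b at chr15:85419638-85466674 on the minus strand. Axin2 (chr11:108811169-108841609), Lef1 (chr3:130903919-131018005) and Tcf7l2 (chr19:55730188-55922091) are on the plus strand.

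The start regions of the 3 genes chosen by their values, of Frat2 as the paralog of Frat1, and of Fzd9 are shown because Frat1 and Frat2 share sequence there, Wnt9a and Fzd9 hold a clock-factor word, and Dact2 lacks it. Each is the RefSeq window from 250 bases before to 50 bases after the start, on the gene's own strand and in the coordinates of GRCm38.p6, which differ from the GRCm39 positions above: Frat1 at chr19:41829720-41830019 (plus), Frat2 at chr19:41848083-41848382 (minus), Wnt9a at chr11:59306680-59306979 (plus), Fzd9 at chr5:135250998-135251297 (minus) and Dact2 at chr17:14203782-14204081 (minus). In Frat1 and Frat2 the capitals mark the longest stretch that the windows share without a difference, and in Wnt9a and Fzd9 they mark the E-box word CACGTG.

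Frat1: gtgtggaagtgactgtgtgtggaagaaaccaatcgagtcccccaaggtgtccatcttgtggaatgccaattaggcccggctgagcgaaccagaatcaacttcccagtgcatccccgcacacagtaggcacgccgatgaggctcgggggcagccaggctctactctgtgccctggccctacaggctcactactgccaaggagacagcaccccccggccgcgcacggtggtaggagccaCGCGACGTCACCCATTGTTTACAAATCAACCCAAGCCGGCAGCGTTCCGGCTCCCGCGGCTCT
Frat2: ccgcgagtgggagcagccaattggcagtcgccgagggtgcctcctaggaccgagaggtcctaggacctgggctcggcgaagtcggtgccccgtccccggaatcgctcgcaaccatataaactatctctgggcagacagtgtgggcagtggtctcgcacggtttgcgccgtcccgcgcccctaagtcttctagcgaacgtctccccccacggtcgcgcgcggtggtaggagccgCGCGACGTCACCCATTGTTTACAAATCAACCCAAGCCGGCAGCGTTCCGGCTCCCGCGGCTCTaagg
Wnt9a: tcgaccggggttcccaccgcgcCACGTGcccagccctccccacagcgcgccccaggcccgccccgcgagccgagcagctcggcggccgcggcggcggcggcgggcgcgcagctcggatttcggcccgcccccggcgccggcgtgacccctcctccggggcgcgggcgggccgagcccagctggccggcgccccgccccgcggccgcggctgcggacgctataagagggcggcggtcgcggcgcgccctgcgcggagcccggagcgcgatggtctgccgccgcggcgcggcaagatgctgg
Fzd9: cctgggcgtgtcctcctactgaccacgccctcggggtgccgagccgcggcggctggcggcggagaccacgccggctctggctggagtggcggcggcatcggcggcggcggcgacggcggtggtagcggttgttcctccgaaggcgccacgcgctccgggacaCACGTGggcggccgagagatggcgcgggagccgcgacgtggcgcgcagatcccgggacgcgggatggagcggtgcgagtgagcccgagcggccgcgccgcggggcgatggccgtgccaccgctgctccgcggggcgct
Dact2: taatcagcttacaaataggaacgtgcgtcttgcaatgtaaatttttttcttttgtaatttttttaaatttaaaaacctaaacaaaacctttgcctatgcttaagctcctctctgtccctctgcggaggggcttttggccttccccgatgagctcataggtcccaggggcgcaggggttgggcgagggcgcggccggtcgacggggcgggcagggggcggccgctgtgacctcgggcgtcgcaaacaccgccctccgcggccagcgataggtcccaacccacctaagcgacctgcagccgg

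The stretch shared by Frat1 and Frat2 is 63 bases long, from position -13 to 49 of Frat1 and from -17 to 45 of Frat2, with 0 as the start base. Among the 70 other pairs of windows of different genes, the longest shared stretch was 15 bases. Windows were found for 9 of the 10 genes, 13 windows in all, and Wnt7b had none. In both strands of these windows, 5 words were searched: CTTTGAT and CTTTGAA, forms of the TCF/LEF site, TGACGTCA, the cyclic AMP response element, CACGTG, the E-box that clock factors bind, and GCGTGGGCG, the EGR site. CACGTG was found once each in Fzd9 (from position -88), Wnt9a (from -228) and the fourth window of Lef1 (from -79), and the other words in no window of these genes. Of all 32851 windows of this length, 7.15% held CACGTG, 5.14% CTTTGAA, 3.73% CTTTGAT, 1.79% TGACGTCA and 0.612% GCGTGGGCG. The GC content was 83.3% in Wnt9a, 78.0% in Fzd9, 61.3% in Frat1 and 56.7% in Dact2, beside a median of 52.7% over all windows. A match describes letters only, and binding was not measured.

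Total counts per mouse were 34698914 to 62758570 (median 53999489). Markers of neurons summed to 11731 to 16430 CPM (gene counts scaled to library size) and those of the dentate gyrus to 257 to 582, so hippocampal neurons were present in every sample. Other markers varied more between mice: the 8 astrocyte markers summed to 979 to 4903 CPM, the 11 markers of thalamus and habenula, which border the hippocampus, to 89.4 to 500.4, the 7 of microglia to 44.0 to 472, the 6 of meningeal fibroblasts to 5.54 to 68.0, the 8 of endothelial cells to 1.77 to 17.7, and the 9 of choroid plexus to 101 to 18911. HFS ad lib HC zt15 replicate 2 stood apart with the 472 CPM of microglia markers, beside a group median of 74.6, and without it the calls among the 10 genes were the same in the comparisons that use it, except that Wnt7b was not called in the 12 h change less the 1 h change (adjusted p = 0.0513, edgeR). In such bulk samples, fewer cells of a type and less RNA per cell cannot be told apart. Exons of 5 of the 10 genes (Dact1, Dact2, Wnt7b, Axin2 and Lef1) overlap a long noncoding RNA on the other strand, by 209 to 1518 bases. These noncoding RNAs had medians of 0.0324 to 1.41 CPM, the highest being AU022754 beside Wnt7b.

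Per length, the 10 genes fell into a higher and a lower class. Mean levels over the 71 mice were 10.95 RPKM (counts scaled to library size and exon length, SD 1.72) for Frat1, 10.35 (SD 1.97) for Wnt7b, 10.11 (SD 1.85) for Dact2 and 9.39 (SD 1.32) for Frat2. These neighbours in the order differed by less than their SD. Axin2 followed at 2.37 (SD 0.399), then Wnt9a at 1.57 (SD 0.609), Tcf7l2 at 1.49 (SD 1.27) and Dact1 at 1.44 (SD 0.411), which again differed by less than their SD, and Fzd9 (0.838, SD 0.289) and Lef1 (0.627, SD 0.514) were lowest. All 10 were read in every mouse, the thinnest being Lef1 with 30 to 1390 counts and Fzd9 with 36 to 194.

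Spread between mice differed as much as level. Frat1 ranged 1.87-fold between the lowest and the highest mouse, Frat2, Wnt7b, Axin2 and Dact2 up to 2.16-fold, and Dact1, Fzd9 and Wnt9a 4.22-fold to 5.92-fold. Tcf7l2 ranged 22.9-fold, from 2.31 to 52.8 CPM, and Lef1 43.0-fold, from 0.558 to 24.0 CPM. Within groups, the SD of log2 CPM was 1.13 for Tcf7l2 and 1.27 for Lef1, at the 99th and 98.3rd percentile of genes of like level, and 0.139 for Frat1, at the 32.4th.

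At 1 h after training, Frat1, the GSK3-binding protein gene chosen for its fall there, was lower on all 3 diets. In NC ad lib mice the lowest, median and highest level was 30.6, 32.8 and 37.1 CPM at HC zt3 and 20.3, 22.3 and 26.6 CPM at ORM+1 h. Every trained mouse was below every home cage mouse of this diet. In HFS TRF mice the values were 30.8, 33.6 and 37.2 CPM at HC zt3 and 19.9, 23.4 and 27.1 CPM at ORM+1 h, again without overlap. In HFS ad lib mice they were 28.3, 33.1 and 36.2 CPM against 23.3, 27.03 and 29.5 CPM, and here the groups overlapped. The log2 difference was -0.56 (SE 0.08) on NC ad lib, -0.29 (SE 0.08) on HFS ad lib and -0.52 (SE 0.08) on HFS TRF.

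Dact2, a Dishevelled-binding gene, had a like pattern. Its lowest, median and highest level at HC zt3 was 39.7, 41.2 and 48.9 CPM on NC ad lib, 33.6, 40.1 and 49.5 CPM on HFS ad lib, and 36.8, 39.7 and 41.2 CPM on HFS TRF. At ORM+1 h it was 23.8, 27.8 and 33.1 CPM, 22.9, 26.2 and 34.8 CPM, and 24.6, 31.6 and 32.7 CPM in the same order of diets. The groups were apart on NC ad lib and on HFS TRF, while among HFS ad lib mice the highest trained mouse exceeded the lowest home cage mouse. The log2 difference was -0.63, -0.56 and -0.38 (SE 0.10 each), in the same order.

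Wnt9a, a ligand, showed the largest difference of the 3 chosen genes. At HC zt3 its lowest, median and highest level was 4.57, 6.70 and 9.97 CPM on NC ad lib, 6.55, 7.55 and 11.1 CPM on HFS ad lib, and 5.14, 7.25 and 9.48 CPM on HFS TRF. At ORM+1 h it was 2.66, 3.71 and 4.36 CPM, 2.31, 2.99 and 4.67 CPM, and 3.58, 4.08 and 4.76 CPM. Trained and home cage mice did not overlap on any of the 3 diets. The log2 difference was -0.93 (SE 0.23) on NC ad lib, -1.37 (SE 0.23) on HFS ad lib and -0.77 (SE 0.23) on HFS TRF.

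These values chose the genes, so they are given as a description with no test. The same choice favors a lack of overlap between trained and home cage mice. How many of all genes lacked overlap was not counted, in this comparison or in those below. Over all genes, 5.73% were called in ORM+1 h against HC zt3 on NC ad lib, 1.23% on HFS ad lib and 2.87% on HFS TRF, and 14.6% in the mean of the 3 diets, at an adjusted p under 0.05. Beside the difference, the summed astrocyte markers had medians at HC zt3 of 1432 CPM on NC ad lib, 1248 on HFS ad lib and 1349 on HFS TRF, and at ORM+1 h of 3426, 2719 and 3397 CPM in the same order. With the astrocyte score as a covariate, which was chosen after seeing the data, the mean log2 difference over diets was -0.35 (SE 0.06) for Frat1, -0.51 (SE 0.08) for Dact2 and -1.27 (SE 0.18) for Wnt9a, against -0.45 (SE 0.05), -0.52 (SE 0.06) and -1.02 (SE 0.13) without it.

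Neuron markers moved in the same comparison. Their sum was 13369 to 15319 CPM at HC zt3 and 11731 to 13334 CPM at ORM+1 h in NC ad lib mice, without overlap, 13424 to 15003 and 12260 to 14522 CPM in HFS ad lib mice, and 12616 to 15100 and 12016 to 13664 CPM in HFS TRF mice, both with overlap. Of the 9 neuron markers, 2 fell in NC ad lib mice, 0 in the other 2 diets and 2 in the mean (median log2 fold change -0.08), and of the 4 CA1 markers 2 fell in the mean (-0.19). The level of Dact2 correlated with the neuron score over the 71 mice with r = 0.59 and rho = 0.59, with 0.73 within the first and 0.40 within the second experiment. It was 0.47 around the group means and 0.60 without the 2 farthest mice, given with no p because the mice of the choice enter. For Dact2 and the astrocyte score r was -0.49, with -0.68 and 0.04 within experiments and -0.03 around the group means. Frat1 correlated with the astrocyte score with r = -0.67 and rho = -0.68, with -0.80 within the first and -0.37 within the second experiment and -0.29 around the group means, and Wnt9a with -0.23, -0.22, -0.59, 0.24 and 0.23 in the same order. For the neuron score r was 0.36 in Frat1 (0.61 and -0.0042 within experiments) and 0.06 in Wnt9a (0.36 and -0.31). With the microglia score, Frat1 had r = 0.39 and rho = 0.57, with 0.75 and 0.22 within experiments. The 7 microglia markers summed to 78.5 to 87.3 CPM at HC zt3 and 54.7 to 68.7 CPM at ORM+1 h on HFS TRF, without overlap, and overlapped on the other 2 diets, with 0 of 7 called on any diet. The part of neuron, astrocyte or microglia RNA in these differences was not tested.

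**Figure D1:**
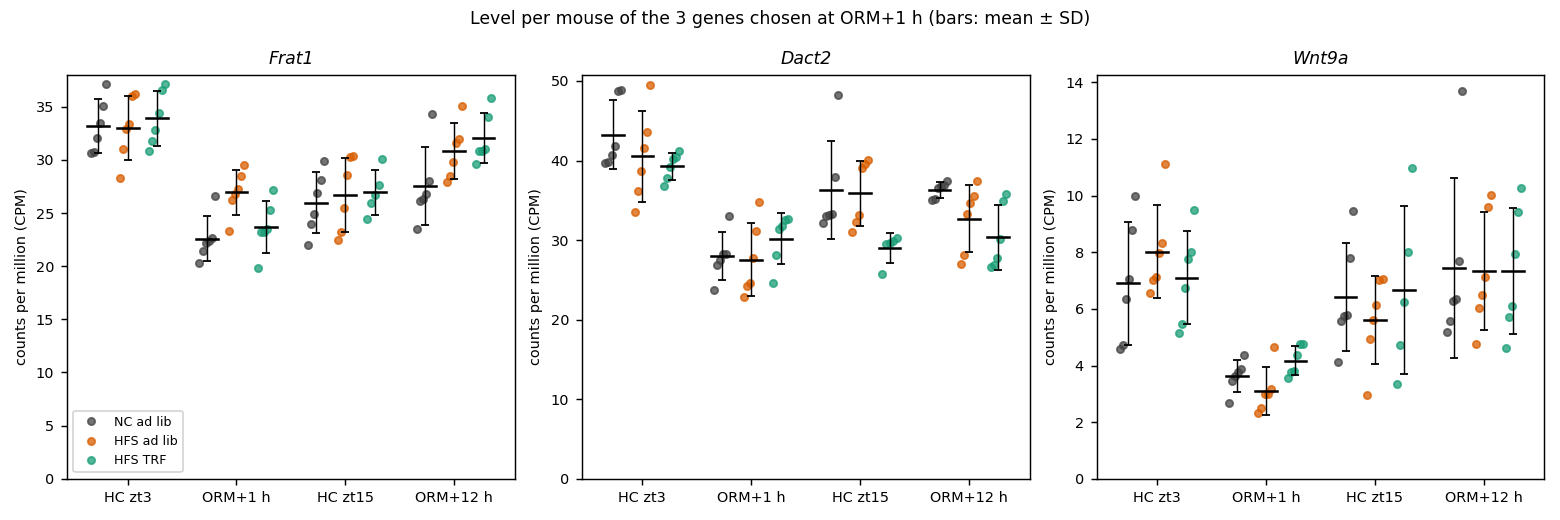
Level of Frat1, Dact2 and Wnt9a in CPM in each mouse (points, colored by diet) by condition, with the mean (horizontal line) and SD (bar) of each group. The ORM+1 h points lie at 19.9 to 29.5 for Frat1, 22.9 to 34.8 for Dact2 and 2.31 to 4.76 for Wnt9a, and the ORM+12 h points lie within the spread of the HC zt15 points or above it.

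The falls that chose the 3 genes were measured in the first experiment, so in the mice of the second the 3 genes were tested. Earlier results of these data were known at the choice, which limits these tests too. Frat1 was 23.5, 26.6 and 34.4 CPM (lowest, median, highest) at ORM+12 h and 22.0, 25.9 and 29.9 CPM at HC zt15 on NC ad lib, 27.9, 30.7 and 35.1 against 22.5, 27.04 and 30.3 CPM on HFS ad lib, and 29.6, 31.0 and 35.9 against 24.4, 26.7 and 30.1 CPM on HFS TRF. All 3 pairs of groups overlapped. In the mean of the 3 diets Frat1 rose by a log2 fold change of 0.18 (SE 0.05, adjusted p = 0.0177, edgeR's quasi-likelihood test). By diet it was 0.08 (adjusted p = 0.67) on NC ad lib, 0.20 (adjusted p = 0.22) on HFS ad lib and 0.25 (adjusted p = 0.089) on HFS TRF. This call was lost when only the groups compared were fitted, with the log2 fold change still at 0.18 (adjusted p = 0.0775). It was also lost with the astrocyte (0.15, adjusted p = 0.0792) or dentate gyrus (0.12, adjusted p = 0.35) score as a covariate, both added after the data were seen.

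Dact2 and Wnt9a did not pass the test at ORM+12 h. Dact2 stood at 29.0 to 36.6 CPM in group medians of ORM+12 h and 29.7 to 36.1 CPM in those of HC zt15, and its mean log2 fold change was -0.02 (SE 0.06, adjusted p = 1.00, 95% interval -0.13 to 0.09). Wnt9a had group medians of 6.32 to 7.03 CPM at ORM+12 h and 5.77 to 6.25 CPM at HC zt15, and a mean log2 fold change of 0.25 (SE 0.13, adjusted p = 0.29, 95% interval -0.01 to 0.51). For the training change at 12 h less that at 1 h, Frat1 stood at 0.63, Dact2 at 0.50 and Wnt9a at 1.27 on the log2 scale, given without a test because the mice of the choice enter it.

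Among the 7 relatives, Fzd9 and Dact1 rose 1 h after training and the other 5 did not pass the test. That is 2 of 7 in NC ad lib mice, where 5.73% of all genes were called, 1 of 7 (Fzd9) in HFS TRF mice beside 2.87%, and 2 of 7 in the mean of the diets beside 14.6%. In HFS ad lib mice edgeR called 0 of 7 beside 1.23% of all genes. There 2 of 7, Fzd9 and Dact1, had an unadjusted p under 0.05, and DESeq2 also called 0.

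Fzd9, the Frizzled receptor gene, was low but separated cleanly in NC ad lib mice. Its lowest, median and highest level was 0.984, 1.24 and 1.35 CPM at HC zt3 and 2.07, 2.72 and 3.24 CPM at ORM+1 h. The groups did not overlap, and the log2 fold change was 1.16 (SE 0.25, adjusted p = 0.00113, edgeR). In HFS TRF mice it was 0.752, 1.19 and 2.17 CPM against 1.97, 2.39 and 2.97 CPM, an overlap of the highest home cage mouse with the lowest trained mice, with a log2 fold change of 0.88 (SE 0.25, adjusted p = 0.0349). That call was lost when any of 7 of the 12 mice was left out (adjusted p 0.0596 to 0.128). In HFS ad lib mice it was 0.709, 1.10 and 2.97 CPM against 1.06, 1.94 and 3.02 CPM, with a log2 fold change of 0.54 (SE 0.25, adjusted p = 0.32).

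The HFS ad lib home cage mouse with the highest Fzd9 (2.97 CPM) also had the highest astrocyte sum of its group, 3595 CPM, where the 4 lowest mice had 1071 to 1331. Without this mouse, Fzd9 passed the test in HFS ad lib mice as well. The difference between diets in the Fzd9 change was not called (HFS ad lib less NC ad lib -0.63, SE 0.35, adjusted p = 0.85). In the mean of the 3 diets Fzd9 rose by 0.86 (SE 0.15, adjusted p = 5.68e-06).

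All 8 astrocyte markers rose with Fzd9 in NC ad lib mice (median log2 fold change 1.31) and in the mean of the diets (0.95), 7 of 8 in HFS TRF mice (1.03) and 0 of 8 in HFS ad lib mice (0.54). Over the 71 mice, Fzd9 followed the astrocyte score with r = 0.75 and rho = 0.68 (permutation p = 1e-05 each, the smallest that 100000 permutations can give, adjusted 8e-05 and 0.000109 over the 120 pairs of gene and marker list). The permutation shuffled all 71 mice without regard to group or experiment. Shifts shared by a group or an experiment therefore enter this p and the permutation p-values below. Without the 2 mice farthest from the median score, r was 0.74. Within the first experiment r was 0.88 and within the second 0.30, and around the group means it was 0.61. With the score as a covariate, chosen after seeing the data, the mean log2 fold change of Fzd9 was 0.24 (adjusted p = 0.514). The score itself moved with training, so the part of astrocyte RNA in the Fzd9 result cannot be told apart from training in this fit.

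Dact1, the other Dishevelled-binding gene, was higher at ORM+1 h, where Dact2 was lower. In NC ad lib mice its lowest, median and highest level was 2.31, 4.05 and 5.74 CPM at HC zt3 and 5.48, 6.96 and 9.03 CPM at ORM+1 h. The groups overlapped by the lowest trained mouse, and Dact1 rose by a log2 fold change of 0.78 (SE 0.21, adjusted p = 0.0109, edgeR). It was 0.50 (adjusted p = 0.26) in HFS ad lib and 0.33 (adjusted p = 0.48) in HFS TRF mice, with a mean of 0.54 (SE 0.12, adjusted p = 0.000559). The NC ad lib call was lost without 1 home cage mouse, replicate 4 (adjusted p = 0.0591), and with the astrocyte score as a covariate, added after the data were seen, the mean was 0.34 (adjusted p = 0.212).

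Across mice, Dact1 was lower where neuron markers, which fell in part at ORM+1 h, were higher (r = -0.72, rho = -0.70, permutation p = 1e-05 each) and higher with choroid plexus markers (r = 0.58, rho = 0.62, permutation p = 1e-05 each). Within the first and second experiments the correlation with neuron markers was -0.78 and -0.68, and without the 2 farthest mice it was -0.69. That with choroid plexus markers was 0.57 and 0.65 within experiments and 0.60 without the 2 farthest mice. With the choroid plexus score as a covariate, the mean log2 fold change of Dact1 at ORM+1 h was 0.54 (SE 0.09, adjusted p = 4.23e-06), close to the value without it.

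The remaining relatives were not called at ORM+1 h. Frat2 had group medians of 18.03 to 19.025 CPM at HC zt3 and 17.2 to 20.9 CPM at ORM+1 h, with a mean log2 fold change of 0.04 (SE 0.06, adjusted p = 0.78). Wnt7b, the other ligand, had medians of 45.4 to 47.1 and 46.0 to 49.1 CPM, with a mean of 0.01 (SE 0.06, adjusted p = 1.00). Axin2 had medians of 14.6 to 16.5 and 14.4 to 14.7 CPM, with a mean of -0.08 (SE 0.07, adjusted p = 0.61, 95% interval -0.22 to 0.06). Lef1 and Tcf7l2 had means of -0.05 (SE 0.38) and -0.12 (SE 0.35), both with wide intervals.

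**Figure D2:**
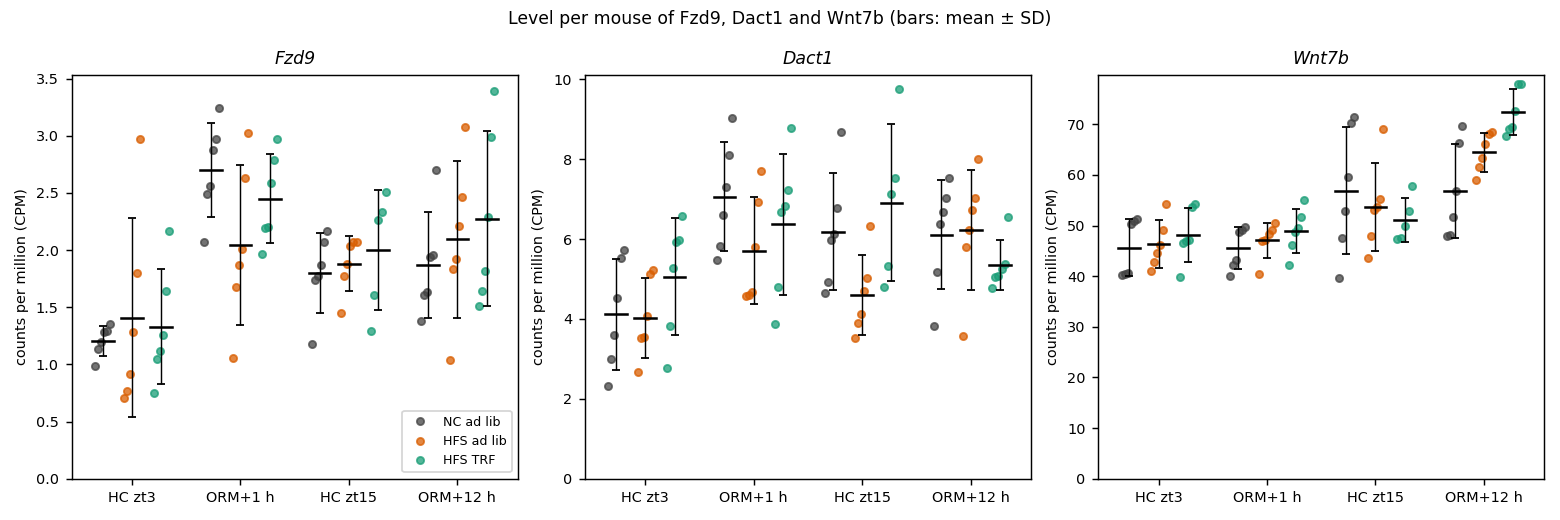
Level of Fzd9, Dact1 and Wnt7b in CPM in each mouse (points, colored by diet) by condition, with the mean (horizontal line) and SD (bar) of each group. In NC ad lib mice Fzd9 lies at 0.984 to 1.35 at HC zt3 and 2.07 to 3.24 at ORM+1 h, and in HFS TRF mice Wnt7b lies at 47.3 to 57.9 at HC zt15 and 67.7 to 77.9 at ORM+12 h.

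At 12 h after training, Wnt7b, a ligand made by hippocampal neurons, rose most clearly of the 10. In HFS TRF mice its lowest, median and highest level was 47.3, 49.9 and 57.9 CPM at HC zt15 (5 mice) and 67.7, 71.02 and 77.9 CPM at ORM+12 h (6 mice). The groups did not overlap, and the log2 fold change was 0.50 (SE 0.10, adjusted p = 0.0125, edgeR). In HFS ad lib mice it was 43.5, 53.4 and 69.1 CPM against 59.0, 64.7 and 68.5 CPM, with 0.26 (SE 0.10, adjusted p = 0.21). In NC ad lib mice it was 39.7, 56.2 and 71.4 CPM against 48.0, 54.2 and 69.6 CPM, with a log2 fold change of -0.0046 (SE 0.10, adjusted p = 1.00). Both these pairs of groups overlapped.

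The mean over the diets was 0.25 (SE 0.06, adjusted p = 0.00648). Differences between diets in the Wnt7b change were not called (HFS ad lib less NC ad lib 0.27, adjusted p = 0.30, and HFS TRF less HFS ad lib 0.24, adjusted p = 0.48). The HFS TRF call was lost without HC zt15 replicate 1 (adjusted p = 0.0605) or replicate 4 (adjusted p = 0.0548). Without the HFS ad lib HC zt15 mouse at 69.1 CPM, replicate 6, Wnt7b was called on that diet.

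Markers of the dentate gyrus and of other cells moved with Wnt7b. Of 7 such markers, 5 rose at ORM+12 h in the mean of the diets (median log2 fold change 0.33), and their sum went from 341 to 431 CPM at HC zt15 to 444 to 541 CPM at ORM+12 h in HFS TRF mice. The NC ad lib mice, among which Wnt7b did not pass the test, had dentate gyrus sums of 337 to 511 and 419 to 582 CPM. On HFS TRF the 7 markers of myelinating oligodendrocytes summed to 699.7 to 915 CPM at HC zt15 and 964 to 1153 CPM at ORM+12 h, without overlap, with 1 of 7 called (median log2 fold change 0.38). There the neuron sum was 12658 to 13919 CPM against 13919 to 15891 CPM, with 1 of 9 markers called (median -0.03). Over the 71 mice Wnt7b followed the dentate gyrus score with r = 0.63 and rho = 0.61 (permutation p = 1e-05 each), but r was 0.0074 within the first experiment, 0.48 within the second and 0.17 around the group means, so the relation does not hold within experiment 1. Without the 2 farthest mice it was 0.60. For Wnt7b and the CA1 score r was -0.22 over the 71 mice and 0.22 around the group means. It was 0.06 within the first and 0.49 within the second experiment. With the dentate gyrus score as a covariate, chosen after seeing the data, the log2 fold change was 0.44 (adjusted p = 0.0672) in HFS TRF mice and 0.20 (adjusted p = 0.199) in the mean. The score moved with training too, its part in the Wnt7b result cannot be told apart from training in this fit, and the same covariate took the calls over all genes in that mean from 1816 to 19.

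Of the 10 genes, edgeR called 1 at ORM+12 h in HFS TRF mice (Wnt7b) beside 2.46% of all genes, and 2 in the mean of the diets (Wnt7b and Frat1) beside 6.03%. It called 0 of 10 in NC ad lib mice beside 0.209% and 0 of 10 in HFS ad lib mice beside 0.179%, where 0 and 4 of 10 had an unadjusted p under 0.05 and DESeq2 called 0 in both. DESeq2 called Frat1 as well as Wnt7b in HFS TRF mice. The training changes at 12 h and 1 h were set against each other in the same model, in which 14.3% of all genes differed. Of the 7 relatives 3 differed: the change of Fzd9 was lower at 12 h by a log2 value of -0.73 (SE 0.20, adjusted p = 0.00863), that of Dact1 by -0.52 (SE 0.17, adjusted p = 0.0262), and that of Wnt7b was higher by 0.24 (SE 0.08, adjusted p = 0.0379). The Wnt7b call was lost without any of 17 single mice (adjusted p 0.0505 to 0.0625), and that of Dact1 without HFS TRF HC zt15 replicate 1 (adjusted p = 0.0512). With the astrocyte score as a covariate 0 of the 3 were called, and the sign of Fzd9 turned (0.086). With the dentate gyrus score Fzd9 alone was called, and Dact1 stood at -0.54 (adjusted p = 0.0869, edgeR). Both scores were added after the data were seen. The time after training, the hour of day and the experiment all differ between these sets of mice and cannot be told apart.

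**Figure D3:**
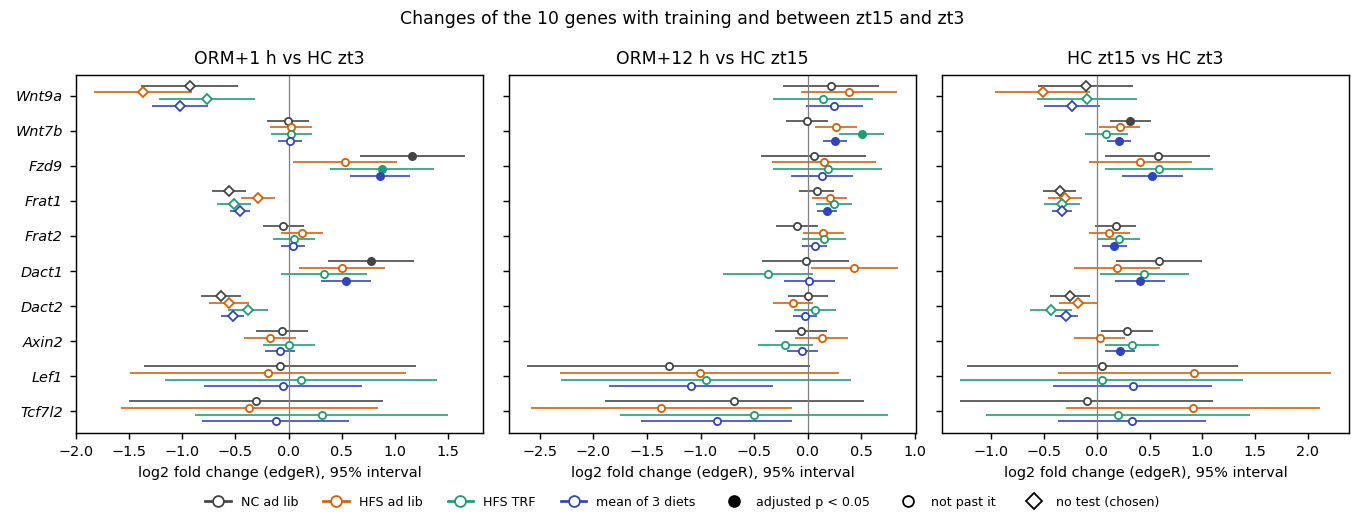
Log2 fold change of each gene (edgeR) with its 95% interval, by diet and in the mean of 3 diets, for ORM+1 h against HC zt3, ORM+12 h against HC zt15, and HC zt15 against HC zt3. Filled points passed an adjusted p of 0.05, open points did not, and diamonds were not tested because the gene was chosen on those mice. Lef1 and Tcf7l2 have the widest intervals in all 3 panels.

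Lef1 and Tcf7l2, the transcription factors of the pathway, passed no test between groups in edgeR's fit without covariates over all mice. Lef1 at HC zt15 had a lowest, median and highest level of 3.398, 6.51 and 13.4 CPM on NC ad lib, 2.18, 3.33 and 20.7 CPM on HFS ad lib and 3.601, 7.03 and 12.6 CPM on HFS TRF. At ORM+12 h it was 1.42, 1.82 and 8.52 CPM, 0.558, 4.83 and 6.34 CPM, and 0.598, 1.95 and 12.8 CPM. All these groups overlapped, and the mean log2 fold change was -1.09 (SE 0.39, adjusted p = 0.079, edgeR). It passed without any of 3 mice in turn (NC ad lib ORM+12 h replicate 6, adjusted p = 0.0413, HFS ad lib HC zt15 replicate 6, 0.0494, and HFS TRF ORM+12 h replicate 6, 0.0223), and with the endothelial score as a covariate (-1.31, SE 0.37, adjusted p = 0.0213). For Tcf7l2 the group medians were 6.77 to 10.3 CPM at HC zt15 and 5.85 to 6.74 CPM at ORM+12 h, with a mean of -0.85 (SE 0.36, adjusted p = 0.15). Of the 11 thalamus and habenula markers, 2 fell and 0 rose in the same mean (median log2 fold change -0.65).

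The levels of both genes followed markers of thalamus and habenula, where Tcf7l2 and Lef1 are known to be expressed in adult neurons. The HFS TRF ORM+1 h mouse with 52.8 CPM of Tcf7l2 and 24.0 CPM of Lef1, the highest of all 71 mice for each, also had the highest sum of these markers, 500.4 CPM. Tcf7l2 followed the score of this list with r = 0.90 and rho = 0.79 (permutation p = 1e-05 each), with 0.95 within the first and 0.94 within the second experiment, 0.95 around the group means and 0.88 without the 2 farthest mice. Lef1 had r = 0.74 and rho = 0.70 (permutation p = 1e-05 each), 0.83 and 0.69 within experiments, 0.78 around the group means and 0.71 without the 2 farthest mice. Lef1 also followed choroid plexus markers (r = 0.56, rho = 0.52, 0.65 and 0.47 within experiments, 0.54 around the group means). Its r with meningeal fibroblast markers was 0.32, with 0.48 and 0.25 within experiments. The correlation of Lef1 with Tcf7l2 over mice was 0.84. Of the listed markers, Gbx2, a defining thalamic gene, was at 0 in some mice and at most 2.76 CPM.

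With the thalamus and habenula score in the model, the standard errors of both genes shrank. For Tcf7l2 the SE of the mean change at ORM+12 h went from 0.36 to 0.12, and the log2 fold change was then -0.12 (adjusted p = 0.663). Lef1 was at -0.63 (SE 0.24, adjusted p = 0.107). For HC zt15 against HC zt3, where neither was called without the score (0.34 each, SE 0.36 for Tcf7l2 and 0.38 for Lef1), Tcf7l2 was higher at zt15 by 0.77 (SE 0.12, adjusted p = 2.41e-07) and Lef1 by 0.82 (SE 0.25, adjusted p = 0.00746).

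**Figure D4:**
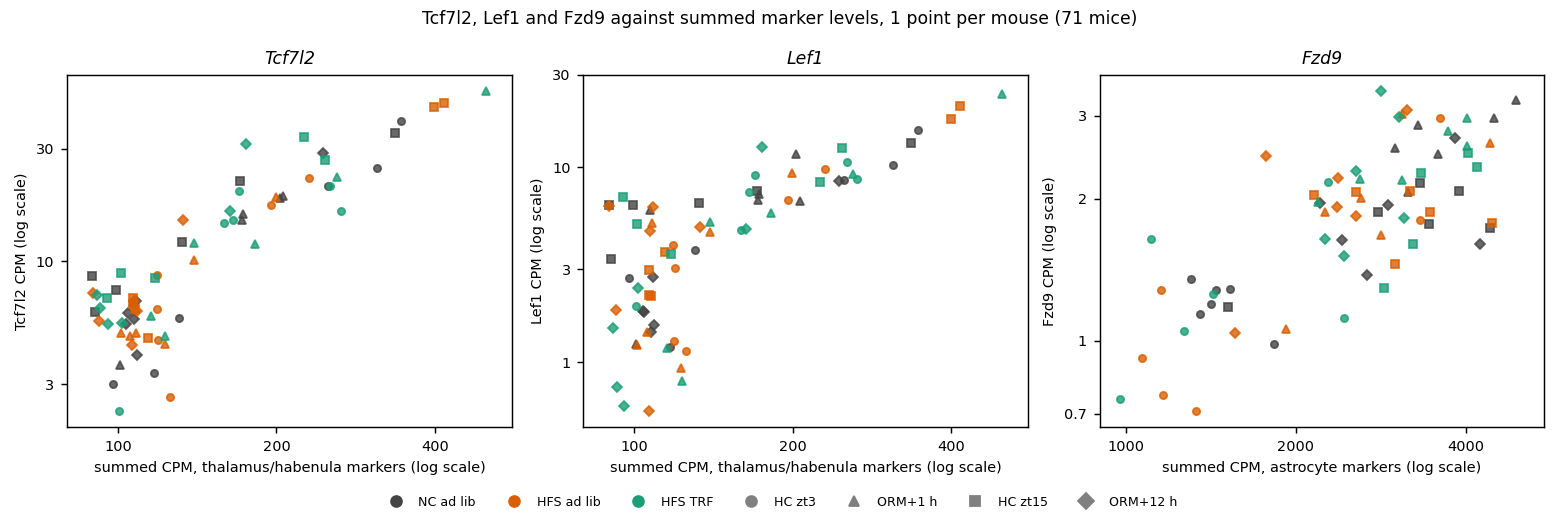
Level of Tcf7l2 and Lef1 against the summed level of 11 thalamus and habenula markers, and of Fzd9 against that of 8 astrocyte markers, in CPM on log axes, with 1 point per mouse (color for diet, shape for condition). The mouse with the highest sum (500.4) is also the highest for Tcf7l2 (52.8) and Lef1 (24.0), Lef1 scatters widely at the lowest sums, and the lowest Fzd9 levels lie with the HC zt3 mice of low astrocyte sums.

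In home cage mice, zt15 (early night) was compared with zt3 (early day). The time of day and the experiment cannot be told apart in this comparison. Of the 7 relatives, 5 were higher at zt15 in the mean of the diets, beside 29.7% of all genes called: Fzd9 by a log2 fold change of 0.53 (SE 0.15, adjusted p = 0.00371), Dact1 by 0.41 (SE 0.12, adjusted p = 0.00607), Axin2 by 0.22 (SE 0.07, adjusted p = 0.0182), Wnt7b by 0.21 (SE 0.06, adjusted p = 0.00384) and Frat2 by 0.17 (SE 0.06, adjusted p = 0.0234). The Frat2 call was lost without 1 mouse, NC ad lib HC zt15 replicate 3 (adjusted p = 0.074), and with the dentate gyrus score as a covariate, added after the data were seen (0.10, adjusted p = 0.262). Of the 7 dentate gyrus markers, 4 rose in this comparison and 0 fell (median log2 fold change 0.35). All 4 CA1 markers fell (-0.46), and 3 of 6 meningeal fibroblast markers (0.54) and 2 of 5 markers of oligodendrocyte precursors (0.26) rose. The precursor sum was 56.8 to 69.4 CPM at zt3 and 79.5 to 115 CPM at zt15 on NC ad lib, 59.6 to 71.8 and 76.2 to 110.1 CPM on HFS ad lib, and 58.5 to 76.6 and 84.1 to 107 CPM on HFS TRF, without overlap on any of these diets. Wnt7b (r = 0.50, rho = 0.45, permutation p = 2e-05 and 1e-04, 0.49 without the 2 farthest mice) and Fzd9 (r = 0.39, rho = 0.40, permutation p = 0.00086 and 0.00062, 0.40 without those) followed the precursor score over the 71 mice, with 0.18 and 0.22 within the first and 0.33 and 0.60 within the second experiment. Around the group means r was 0.26 for Wnt7b and 0.38 for Fzd9. Dact1 (r = 0.55, 0.46 and 0.63 within experiments) and Axin2 (r = 0.53) followed the meningeal fibroblast score. The part of all these markers in the differences was not tested. By diet, 1 of 7 was called in NC ad lib mice (Wnt7b, 0.32, adjusted p = 0.0237) beside 11.7% of all genes. DESeq2, its size factors in edgeR, both other filters on low counts and the replicate block each called 2 there, Dact1 and Wnt7b, and a fit of only the groups compared called 0.

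Wnt7b at HC zt3 was 40.1, 45.5 and 51.3 CPM (lowest, median, highest) in those NC ad lib mice and 39.7, 56.2 and 71.4 CPM at HC zt15. The groups overlapped, and the call was lost when any of 5 mice was left out (adjusted p 0.064 to 0.117). In HFS ad lib and HFS TRF mice edgeR called 0 of 7 beside 10.4% and 14.2% of all genes, with 1 and 3 of 7 at an unadjusted p under 0.05, and DESeq2 called 0 and 1 (Axin2). Without HFS ad lib HC zt3 replicate 5, Fzd9 was called in HFS ad lib mice.

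In edgeR's fit of all mice, Axin2, the scaffold and target gene, was called in no comparison but this one and there only in the mean. It was also called in HFS TRF mice by DESeq2, with the choroid plexus score as a covariate, and without HC zt3 replicate 6 or HC zt15 replicate 5 of that diet. Its lowest, median and highest level over the 18 home cage mice at zt3 was 11.1, 15.8 and 18.7 CPM and over the 17 at zt15 13.2, 17.9 and 22.1 CPM, with overlap. Over mice it followed choroid plexus markers (r = 0.58, rho = 0.61, permutation p = 1e-05 each, 0.66 within both experiments, 0.55 without the 2 farthest mice). It also followed meningeal fibroblast markers (r = 0.53, rho = 0.49, 0.47 and 0.45 within experiments, 0.54 around the group means). It was lower where neuron markers (r = -0.46, rho = -0.45, permutation p = 1e-05 and 8e-05, -0.50 and -0.52 within experiments, -0.43 without the 2 farthest mice) and CA1 markers (r = -0.51, rho = -0.48, permutation p = 1e-05 and 3e-05, -0.37 and -0.24 within experiments, -0.49 without the 2 farthest mice) were higher. Around the group means, r was 0.69 with choroid plexus, -0.69 with neuron and -0.38 with CA1 markers. With that score as a covariate its mean difference between zt15 and zt3 was 0.18 (adjusted p = 0.0091). Fzd9 over the same mice was 0.709, 1.23 and 2.97 CPM at zt3 and 1.18, 1.88 and 2.51 CPM at zt15.

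All 8 astrocyte markers were higher at zt15 than at zt3 in the mean of the diets too (median log2 fold change 0.98). With the astrocyte score as a covariate, added after the data were seen, Wnt7b alone of the 7 relatives was called in this comparison, and Fzd9 was at -0.04 (adjusted p = 1). The log2 differences of the chosen genes between zt15 and zt3, with no test, were -0.33 for Frat1, -0.29 for Dact2 and -0.24 for Wnt9a in the mean of the diets. The sign of Wnt9a turned without 1 of 12 mice in NC ad lib and without any of 3 of 11 mice in HFS TRF.

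No difference between diets was called for these genes. HFS ad lib against NC ad lib gave 0 of 7 relatives at HC zt3 and at ORM+1 h (beside 0% of all genes each), 0 of 10 genes at HC zt15 (0.063%) and at ORM+12 h (2.27%), and 0 of 7 in the mean of the 4 conditions (2.61%). HFS TRF against HFS ad lib gave 0 of 7 at HC zt3 and ORM+1 h (0% each), 0 of 10 at HC zt15 (0%) and ORM+12 h (0.00664%), and 0 of 7 in the mean of the 4 conditions (0%). In these 10 comparisons by edgeR, 0 to 2 of the genes had an unadjusted p under 0.05, and DESeq2 called 0.

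Among the closest were Frat2 in HFS ad lib against NC ad lib at ORM+12 h, with a log2 fold change of 0.22 (SE 0.10, adjusted p = 0.18), and Dact1 and Dact2 in HFS TRF against HFS ad lib at HC zt15, with 0.59 (SE 0.22, adjusted p = 0.25) and -0.31 (SE 0.10, adjusted p = 0.22). At HC zt15 Dact2 was 31.1, 36.1 and 40.05 CPM in HFS ad lib and 25.7, 29.7 and 30.3 CPM in HFS TRF mice, without overlap. Dact1 was 3.54, 4.41 and 6.32 CPM against 4.81, 7.14 and 9.75 CPM, with overlap. These 3 genes were picked out after their values were seen. Differences between diets in the change with training or hour were called for 0 of these genes in all 6 comparisons of that kind, where 0.106% of all genes were called for HFS ad lib against NC ad lib at ORM+12 h and 0% in the other 5. DESeq2 called 0 of these genes as well, and 1 unadjusted p was under 0.05, that of Dact1 for HFS TRF against HFS ad lib at ORM+12 h.

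Of 89 other genes of the pathway, 87 passed the filter and were tested, and their called shares are given beside those of all genes. At ORM+1 h, 11 rose and 3 fell in the mean of the diets (16.1% beside 14.6% of all genes, median log2 fold change 0.02 beside -0.0026). In NC ad lib mice 7 rose and 0 fell (8.05% beside 5.73%), in HFS TRF mice 3 rose and 0 fell (3.45% beside 2.87%), and in HFS ad lib mice 0 were called (0% beside 1.23%). The risers with the smallest adjusted p in the mean were Lgr4, the R-spondin receptor, by 0.48 (SE 0.07, adjusted p = 2.63e-07), and Fzd1, a Frizzled receptor, by 0.50 (SE 0.08, adjusted p = 1.19e-06). Those that fell were led by Amer1, a membrane anchor of the destruction complex, at -0.29 (SE 0.08, adjusted p = 0.00566), and Csnk1e, a kinase of Dishevelled, at -0.12 (SE 0.03, adjusted p = 0.00716).

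By role, the called genes at ORM+1 h in the mean of the 3 diets, beside 14.6% of all genes, were 4 of 24 receptors, co-receptors and their regulators (4 rose), 2 of 18 ligands and their carriers (2 rose), 5 of 18 cytoplasmic members (2 rose, 3 fell), 2 of 10 nuclear cofactors (2 rose), 1 of 11 further target genes (1 rose) and 0 of 13 secreted inhibitors, with genes of several roles counted under each. In NC ad lib mice, 4 of 24 receptors, 1 of 18 ligands, 1 of 18 cytoplasmic members and 1 of 10 nuclear cofactors rose. There 5.73% of all genes were called. On HFS TRF 2 of 24 receptors and 1 of 18 cytoplasmic members rose, beside 2.87% of all genes. No gene of any role was called on HFS ad lib, beside 1.23%. At ORM+12 h, 5 of 87 rose and 0 fell in the mean (5.75% beside 6.03%), led by Apcdd1, a membrane inhibitor of Wnt signaling, at 0.40 (SE 0.08, adjusted p = 0.00105) and Bcl9l, a beta-catenin cofactor, at 0.15 (SE 0.04, adjusted p = 0.0103). Apcdd1 (0.55) and Dact3 (0.42), the third Dapper gene, were the 2 that rose in HFS TRF mice (2.30% beside 2.46%), and 0 of 87 were called in NC ad lib (beside 0.209%) and HFS ad lib mice (beside 0.179%).

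Between zt15 and zt3, 16 of the 87 were higher and 8 lower in the mean (27.6% beside 29.7%), and by diet 12 of 87 were called in NC ad lib (13.8% beside 11.7%), 5 in HFS ad lib (5.75% beside 10.4%) and 13 in HFS TRF mice (14.9% beside 14.2%). Fzd1 (0.64, SE 0.08, adjusted p = 6.27e-10) and Fzd2 (1.41, SE 0.20, adjusted p = 3.14e-08) led the higher ones, and Dkk3, a secreted Dickkopf protein (-0.30, SE 0.06), and Ccnd1, a cell-cycle target gene (-0.33, SE 0.06), the lower ones. By role in the mean, 10 of 24 receptors were called (9 higher, 1 lower, 41.7%), 4 of 18 ligands (22.2%), 6 of 18 cytoplasmic members (33.3%), 2 of 10 nuclear cofactors (20%), 1 of 13 secreted inhibitors (7.69%) and 1 of 11 target genes (9.09%). Between diets, 1 of the 87 was called in 1 comparison: Wnt2, a ligand, was higher in HFS ad lib than NC ad lib mice in the mean of the 4 conditions (0.32, SE 0.08, adjusted p = 0.0172), which is 1.15% of the list beside 2.61% of all genes. At ORM+12 h, 0 of 87 differed between these diets beside 2.27%.

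For each of the 10 genes, the 3 genes most like it over the 71 mice were found by Pearson's r of log2 CPM among 21511 genes. Values are descriptions, and all points share library depth and group structure. Tcf7l2 was most like Amotl1 (0.96), Synpo2 (0.93) and Ramp3 (0.91), of which Synpo2 and Ramp3 are in the list of thalamus and habenula markers, and Lef1 like Amotl1 (0.91), Patj (0.91) and Zic1 (0.90). Wnt7b was most like Kcnc4 (0.89), C1ql2 (0.89), a marker of the dentate gyrus in the list used here, and Nrxn2 (0.89). Fzd9 was most like Ntsr2 (0.81), Fgfr3 (0.81) and Atp1b2 (0.80).

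Dact1 was most like Mdm2 (0.83), Serpinh1 (0.79) and Plekhg2 (0.79), and Dact2 like Gpatch8 (0.83), Arfgap1 (0.82) and Apbb1 (0.80). Frat1 was most like Gm47163, Bhlha9 and Wdr73 (0.75 each), Wnt9a like Clspn (0.73), Bbc3 (0.72) and 9930014A18Rik (0.72), Axin2 like Itpkb (0.75), Mapk4 (0.74) and Wnk4 (0.73), and Frat2 like 4933431E20Rik (0.73), A630072M18Rik (0.69) and Akain1 (0.69). Among the 10 themselves the highest value was that of Lef1 with Tcf7l2 (0.84) and the lowest that of Dact1 with Dact2 (-0.56). Around the group means, Dact1 and Axin2 had 0.71 and Frat1 and Frat2, the paired GSK3-binding genes, 0.33.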

How the data were processed

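The authors deposited raw counts per gene for 71 mice. The titles of the HFS TRF samples name both time-restricted feeding and ad libitum, and their diet label, TRF, was used. Per their methods and processing notes, of which the notes also list the build mm9, paired reads were trimmed with Trim Galore 0.6.7 and cutadapt 3.4, aligned to GRCm39 with HISAT2 2.2.0, and uniquely mapped reads were counted with featureCounts (Subread 2.0.3). Libraries were stranded, and the strand setting of the counting is not given in the sources used here. Of 57010 gene IDs, 56310 matched GENCODE vM39.

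The members and gene lists were chosen with earlier results of these data known. Genes with at least 10 counts in total were normalized by TMM and fitted in 1 model of 12 groups with edgeR 4.0.16 (quasi-likelihood, R 4.3.3). Each comparison's p-values were Benjamini-Hochberg adjusted over 30141 genes, with a threshold of 0.05. Mice were separate animals and separate samples. CPM used TMM library sizes, and RPKM the union of exons. A marker score is the mean z score of log2 CPM (prior count 2) over its list, and a correlation is with log2 CPM of the gene. Correlations were tested by 2-sided permutation, adjusted over 120 pairs, of 10 genes and 12 lists. Mice were permuted across groups and experiments, so these p-values do not separate a relation within groups from shifts between them.

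All 10 genes are named. Of other pathway genes, up to 2 that rose and 2 that fell with the smallest adjusted p are named per comparison, and the 3 genes most like each of the 10. Alternatives were DESeq2 1.42.0, its size factors, filters (at least 1 count, filterByExpr), fits of only the groups in a comparison, a block for replicate number, marker scores as covariates, and each mouse left out. The astrocyte and dentate gyrus covariates were added after seeing the data. The model was also run on simulated data, and the outcome is not given here. Promoter sequences are from RefSeq.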

Additional observations from a re-analysis of the deposited data

Results flagged for a closer look

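In 17 of 120 sets of a gene, a diet and a condition, 1 mouse stood apart from its group by Dixon's criterion on CPM. Chance gives about 1 in 20 if levels are normally distributed, which was not tested. The criterion sets the gap against the range of the group, so a small gap in a tight group also counts. In 14 of these 17 sets the mouse was high and in 3 low. Tcf7l2 stood apart in HFS TRF HC zt3 replicate 2 (2.31 CPM, next 14.5), HFS TRF ORM+1 h replicate 3 (52.8, next 22.7), NC ad lib ORM+12 h replicate 6 (28.8, next 6.76) and HFS ad lib ORM+12 h replicate 6 (14.9, next 7.30). Lef1 was far from its group in HFS TRF ORM+1 h replicate 3 (24.0 CPM, next 9.29), NC ad lib ORM+12 h replicate 6 (8.52, next 2.73) and HFS TRF ORM+12 h replicate 6 (12.8, next 4.85), so the first 2 of these mice stood apart for both transcription factor genes.

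Frat2 was high in HFS TRF ORM+1 h replicate 3 (19.6 CPM, next 18.7), NC ad lib HC zt15 replicate 3 (29.9, next 21.1) and NC ad lib ORM+12 h replicate 2 (24.5, next 19.6). In that last mouse Wnt9a was high as well (13.7 CPM, next 7.69), and Wnt9a was also high in HFS ad lib ORM+1 h replicate 1 (4.67, next 3.17). Dact2 was high in NC ad lib HC zt15 replicate 6 (48.2 CPM, next 37.9) and low in HFS TRF HC zt15 replicate 5 (25.7, next 29.5). Frat1 was high in NC ad lib ORM+1 h replicate 5 (26.6 CPM, next 22.6), Dact1 was high in HFS TRF ORM+12 h replicate 6 (6.54, next 5.39), and Wnt7b was low in HFS ad lib ORM+1 h replicate 3 (40.3, next 47.0).

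The change with training differed between 12 h and 1 h, tested as a contrast within edgeR's model, for Fzd9 (log2 value -0.73, adjusted p = 0.00863), Dact1 (-0.52, adjusted p = 0.0262) and Wnt7b (0.24, adjusted p = 0.0379), in the mean of the 3 diets. With the astrocyte score as a covariate 0 of these 3 were called and the sign of Fzd9 turned (0.086). With the dentate gyrus score Fzd9 alone was called. Leaving out single mice ended the calls of Wnt7b and Dact1.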

How the results depend on the processing

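Counts of called genes are given as in the report, of 7 relatives or of all 10. At ORM+1 h the astrocyte score as a covariate took the counts to 0 for NC ad lib (from 2), for HFS TRF (from 1) and for the mean (from 2), and the dentate gyrus score took HFS TRF to 0. At ORM+12 h DESeq2 gave 2 in HFS TRF (from 1), the dentate gyrus score 0 there and 0 in the mean (from 2), and the astrocyte score and a fit of only the groups compared 1 each in the mean. For zt15 against zt3 in NC ad lib (1), DESeq2, its size factors, a filter of at least 1 count, filterByExpr and the replicate block gave 2 each, the thalamus and habenula score 3, and the astrocyte score, the dentate gyrus score and only the groups compared 0. In HFS TRF (0) DESeq2, the choroid plexus score and the thalamus and habenula score gave 1 each, and in the mean (5) the astrocyte score gave 1, the dentate gyrus score 4 and the thalamus and habenula score 7. For 12 h less 1 h (3) the astrocyte score gave 0 and the dentate gyrus score 1, and for Fzd9 the astrocyte score turned the sign there (0.086) and between zt15 and zt3 (-0.037). The cause was not tested, and both scores moved with condition. Wnt7b lost that 12 h less 1 h call also at 1 count (adjusted p = 0.064), with the choroid plexus score (0.0548) and without any of 17 single mice (0.0505 to 0.0625).

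With each mouse left out in turn, counts ranged from 0 to 2 for zt15 against zt3 in NC ad lib and HFS TRF and 0 to 1 in HFS ad lib, from 1 to 2 for NC ad lib at ORM+1 h and 0 to 1 for both HFS diets, and from 0 to 1 at ORM+12 h in HFS ad lib and HFS TRF. In the untested zt15 against zt3 difference of Wnt9a the sign turned (NC ad lib -0.25 to 0.026, HFS TRF -0.35 to 0.076, with 0.0064 and 0.0083 without either of 2 other mice). Counts over all genes moved by over 1.5 times for most comparisons: at ORM+1 h from 1727 (450 to 2554), 371 (180 to 747), 864 (587 to 1521) and 4408 (1822 to 5752), at ORM+12 h from 63 (0 to 303), 54 (0 to 252), 741 (47 to 1691) and 1816 (19 to 2162), for zt15 against zt3 from 3534 (2100 to 3975), 3139 (1778 to 3677), 4282 (2462 to 4796) and 8943 (5121 to 9131), in the order NC ad lib, HFS ad lib, HFS TRF and mean, and for 12 h less 1 h from 4298 (1096 to 4646). For HFS ad lib against NC ad lib they were 0 (0 to 21) at ORM+1 h, 19 (0 to 57) at HC zt15, 684 (0 to 1354) at ORM+12 h, 788 (324 to 1284) in the mean and 32 (0 to 615) for the difference in the 12 h change. For HFS TRF against HFS ad lib they were 0 (0 to 1) at HC zt3, 0 (0 to 56) at HC zt15, 2 (0 to 8) at ORM+12 h, 0 (0 to 4) in the mean and 0 (0 to 17) for that difference.

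Replicate numbers do not pair the mice: deviations of same-numbered mice correlated at -0.338 to 0.294, and in no set of pairs did every mouse correlate best with its own number. Of the counts among the 10 genes, the replicate block changed 1, that of zt15 against zt3 in NC ad lib (2). Over all genes it moved by over 1.5 times those of HFS ad lib against NC ad lib at HC zt15 (from 19 to 0) and in the 12 h change (from 32 to 52). Counts per mouse were lowest for Lef1 (30 to 1390) and Fzd9 (36 to 194).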
